A study of Mus musculus with 4 samples.

Results

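Interferon-induced genes were examined in cultured mouse embryonic fibroblasts that lack Men1, the gene of the nuclear scaffold protein menin. The set held 10 genes (Ifitm3, Ifit1, Ifit2, Ifit3, Isg15, Usp18, Mx1, Gbp2, Irf1 and Irf7) of the 8251 genes named on the array. They were represented by 11 of the 10833 probe sets with a single gene symbol, Irf7 having 2 and each other gene 1. Membership was chosen from knowledge of the interferon response, but the set was picked for study on the value of Ifitm3, which stood lower with Men1 in an earlier look at these arrays. Differences between the groups in these genes are therefore given as descriptions, with no test.

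All cells carried the Men1 knockout on a mixed FVB;129Sv background. In the Men1 group (2 arrays) the knockout cells had been complemented with Men1, and in the vector group (2 arrays) with vector alone, so the vector arrays represent Men1-/- cells. The series asked which genes menin regulates. The labels name no interferon treatment. They also do not say how Men1 was introduced or whether the arrays of a group held separate cultures. Standard errors (SE) therefore reflect spread between arrays only. Each SE is moderated, which means that a probe set's own spread is drawn toward a value typical of all probe sets. In RNA from whole cultures, fewer expressing cells and less RNA per cell cannot be told apart.

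Interferons are secreted when a cell senses viral RNA or DNA. They bind surface receptors, whose JAK kinases activate transcription factors that move to the nucleus and bind the interferon-stimulated response element (ISRE) or the gamma-activated site (GAS) of the induced genes. The products block viral entry (IFITM proteins), bind foreign RNA (IFIT proteins), modify other proteins or undo that modification (ISG15 and USP18), act as antiviral GTPases (MX and GBP proteins), or carry the response further (IRF1 and IRF7). Fibroblasts are a classical cell type in which this response is studied.

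Both elements, the ISRE and the GAS, were looked for in RefSeq promoter windows (GRCm38.p6) of 300 bases, 250 before and 50 after each annotated start. Of the 10 genes, 8 had an entry, with 10 windows in all, and Usp18 and Mx1 had none. An ISRE core was searched as GAAANNGAAA on both strands, with overlapping matches kept. It was found in 5 of the 8 genes and in 5 of their 10 windows, against 3.44% of all 32851 windows. The genes were chosen as known interferon-induced genes, so nothing is read from this excess. The matched stretches are shown because they belong to genes at very different signals in these cells, as described below. Each is written in the direction of transcription, with the matches in capitals.

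Ifitm3: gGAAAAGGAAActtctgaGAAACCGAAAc

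Isg15: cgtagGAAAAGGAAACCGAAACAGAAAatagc

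Ifit1: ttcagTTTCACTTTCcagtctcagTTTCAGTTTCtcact

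Ifit3: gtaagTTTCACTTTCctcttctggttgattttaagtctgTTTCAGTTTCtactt

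Gbp2: tttagTTTCACTTTCactgt

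The Ifitm3 stretch lies at chr7:141010715-141010743 on the minus strand, and its 2 matches lie within the first 29 transcribed bases. The Isg15 stretch, at chr4:156200870-156200901 on the minus strand, holds 3 matches, each of which shares bases with the next, and they begin 78 bases before the start. Ifit1 (chr19:34640780-34640818, plus strand) and Ifit3 (chr19:34583368-34583421, plus strand) each had 2 matches on the opposite strand, beginning 104 and 156 bases before the start. Gbp2 (chr3:142620599-142620618, plus strand) had 1, beginning 59 bases before the start.

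A GAS core, searched as TTCNNNGAA, which reads the same on both strands, was present in 8.3% of all windows. It was found in 3 of the 8 genes, Irf1, Ifit2 and Ifitm3, in 1 window each. It is shown for Irf1 and Ifit2, which had no ISRE core in their windows. In Ifitm3 it overlapped the second ISRE match.

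Irf1: ctgatTTCCCCGAAatgat

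Ifit2: ggagcTTCCTGGAAgaatg

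The Irf1 stretch lies at chr11:53769919-53769937 and the Ifit2 stretch at chr19:34550448-34550466, both on the plus strand, and the matches begin 90 and 241 bases before the start. A second annotated start of each of these genes had neither motif, nor did the window of Irf7. A match is a description of the letters in the window and not evidence of binding.

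Over the whole table, the 2 vector arrays differed more from each other than the Men1 arrays did (median absolute log2 difference 0.306 against 0.196). The authors' signals were set beside 19 bacterial and yeast control probe sets to which no RNA was spiked. The highest of these was 25.9 and 27.4 on the arrays with Men1 and 15.9 and 20 for vector, and a signal at or below that of its own array is called at control level. Men1 itself read 18.8 and 22.5 with Men1, against 18.1 and 29.5 with vector. It is unknown whether its probes match deleted, retained or added sequence, so it does not check the labels. Of 17 measured fibroblast markers 12 exceeded the controls on every array, led by the collagen gene Col1a1 (mean signal 6897 ± 1020 with Men1 and 6575 ± 731.5 with vector, SD, n = 2 each). The surface marker Thy1 was at control level on all arrays.

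Among the 10 genes, 5 were at control level on every array: Ifit1, Ifit3, Usp18, Mx1 and Gbp2, with signals from 0.5 to 9.5. A further 4, Ifitm3, Irf1, Irf7 and Ifit2, exceeded the controls on all arrays in at least 1 probe set, and Isg15 did so on 2 arrays. A difference between the groups can therefore be read for Ifitm3, Irf1 and Ifit2, and with more doubt for Isg15 and Irf7. For Irf7 it can be read in only 1 of the 2 probe sets, one that can also bind transcripts of related sequence.

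**Figure D1:**
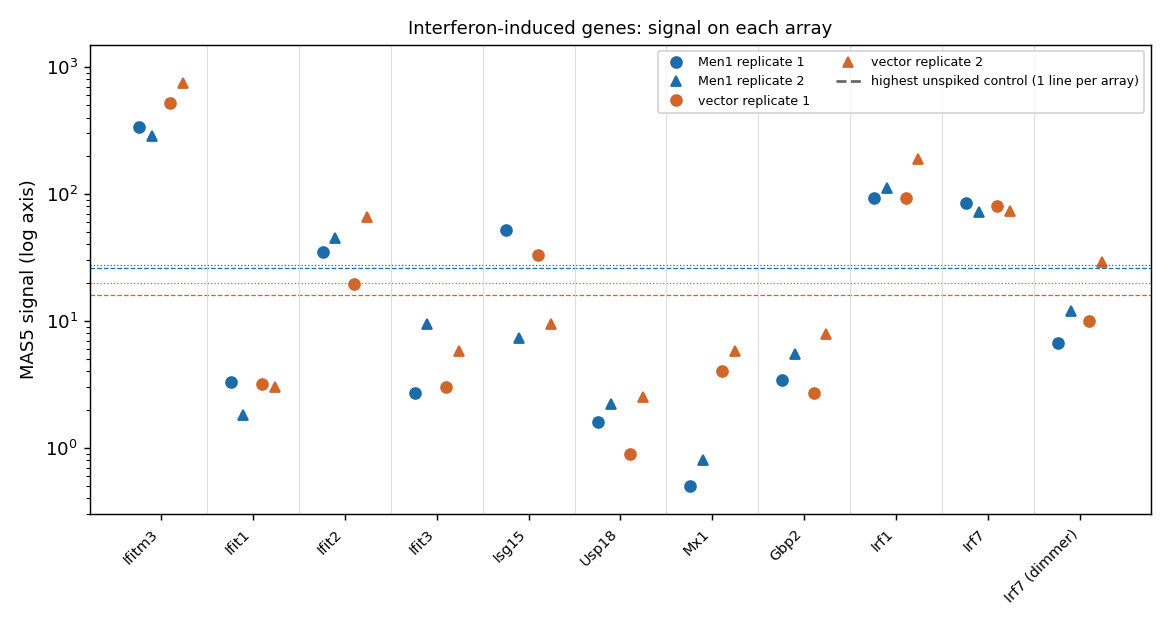
MAS5 signal (log axis) of each interferon-induced gene on the 4 arrays, with Men1 arrays in blue, vector arrays in orange, replicate 1 as circles and replicate 2 as triangles; dashed and dotted lines mark each array's highest unspiked control (25.9 and 27.4 with Men1, 15.9 and 20 with vector). Ifitm3 is brightest, with both vector arrays above both Men1 arrays, while Ifit1, Ifit3, Usp18, Mx1 and Gbp2 lie under the control lines on every array.

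Ifitm3 encodes a membrane protein that keeps enveloped viruses from fusing with endosomes. It read 336.3 and 287.6 with Men1, against 518.6 and 742.5 with vector. Both vector signals lay above both Men1 signals, and the vector arrays lay further apart. The means were 312 ± 34.4 with Men1 and 630.5 ± 158 with vector (SD, n = 2 each), so that vector stood 1.95-fold above Men1 on the log2(signal + 16) scale (log2 difference, Men1 minus vector, -0.96, SE 0.24). For the 5466 named genes whose brightest probe set exceeded the controls on every array, the 5th and 95th percentiles of the difference were -0.33 and 0.34. They are given for scale only, since the set was picked on the Ifitm3 value.

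**Figure D2:**
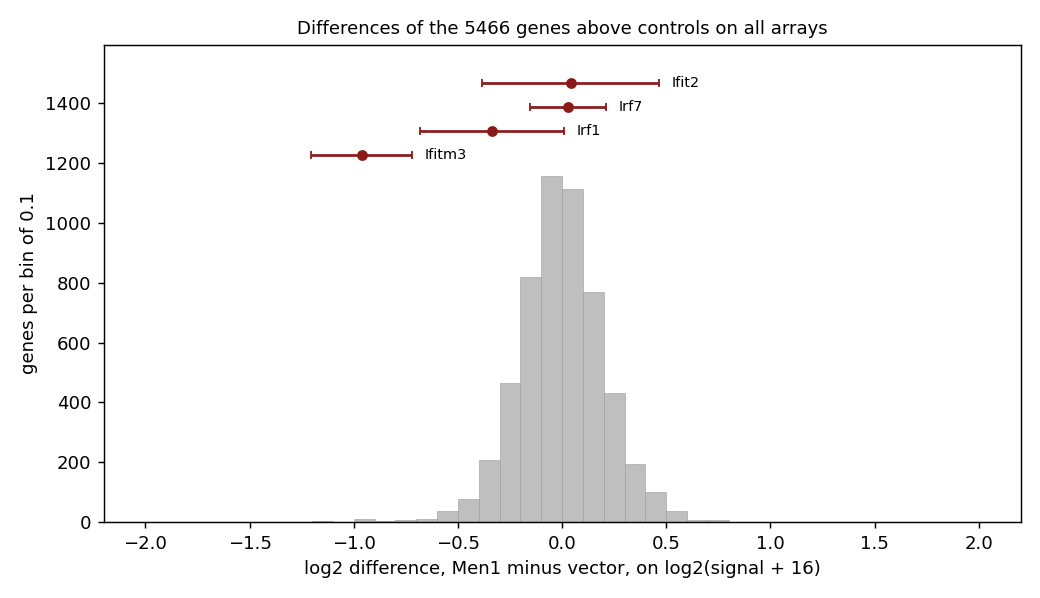
Histogram of log2 differences (Men1 minus vector, x axis) for the 5466 named genes above the controls on all 4 arrays, in bins of 0.1, with Ifitm3, Irf1, Irf7 and Ifit2 drawn above it as points with SE bars at arbitrary heights. The 5th and 95th percentiles are -0.33 and 0.34; Ifitm3, on whose value the set was picked, lies at -0.96, and the other 3 at -0.34, 0.03 and 0.04.

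Signals of the other Ifitm genes did not show the same separation. Ifitm2, whose product also restricts viral entry, read 45.4 and 27.7 with Men1, against 40.2 and 63.7 with vector, so the groups overlapped (log2 difference -0.37, SE 0.28). Ifitm1 read 21.3 and 31.2 against 22.6 and 45.8, which overlap, and its first Men1 signal was at control level (-0.22, SE 0.30). For Ifitm6 the signals were 25.2 and 52.5 with Men1, against 11.6 and 32.7 with vector. These overlap as well, with the higher mean on the Men1 side (0.54, SE 0.39), and the array numbered 1 of each group was at control level. Ifitm10, a more distant relative, read 150.8 and 154.3 against 143.4 and 146.8. Its groups did not overlap, and the arrays of each group lay 0.03 apart in log2. The difference of 0.07 was smaller than the moderated SE of 0.17, which was set mostly by the spread of all probe sets. A total of 5 Ifitm genes were measured, 3 with the lower mean on the Men1 side and 2 with the higher.

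Ifitm1, Ifitm2, Ifitm3 and Ifitm6 are neighbours on mouse chromosome 7. Of the 12 protein-coding genes that RefSeq places next to Ifitm3, 6 on each side, 6 were measured, and the groups overlapped in all 6. Groups overlap for most genes of the table (they do not for 22.1%), so nothing is read about the locus from this count. Besides the Ifitm genes these were Cox8b, a muscle form of a cytochrome oxidase subunit (log2 difference 0.07, SE 0.23), Pkp3, a desmosomal plakophilin that was at control level throughout, and Ptdss2, a phosphatidylserine synthase. Ptdss2 read 82.9 and 42.8 with Men1, against 68.6 and 116.8 with vector (-0.48, SE 0.36).

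**Figure D3:**
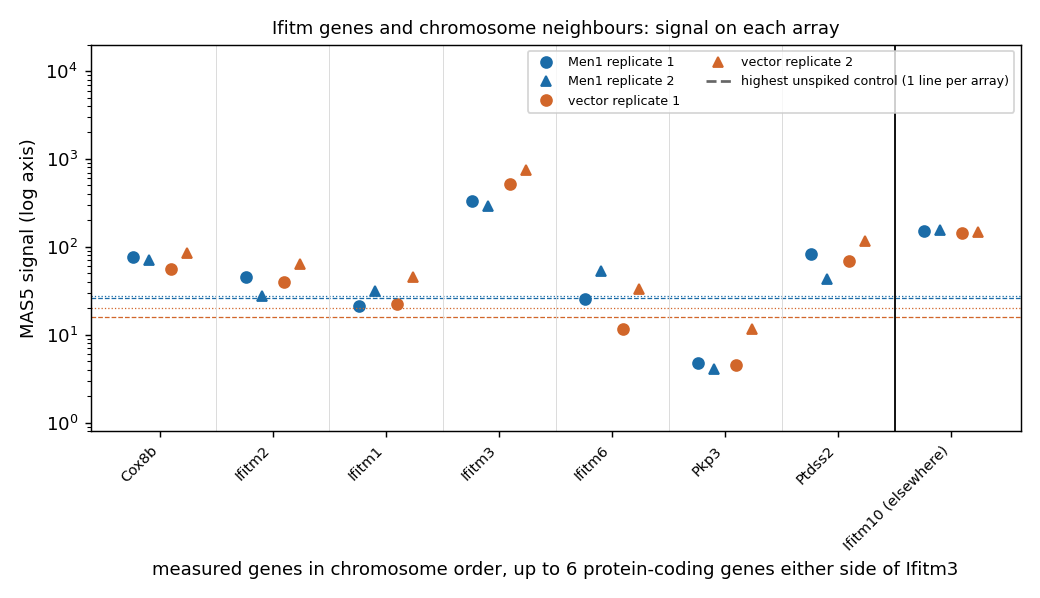
MAS5 signal (log axis) on the 4 arrays for Ifitm3 and the 6 measured genes among the 12 nearest protein-coding genes, in chromosome order, with Ifitm10, which lies further away, at the right; colours, symbols and lines are as in the plot of all interferon-induced genes. The groups separate for Ifitm3 and, by a small margin, for Ifitm10, and overlap for the others.

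The IFIT proteins bind RNA that lacks the marks of the cell's own messages. Ifit2 read 34.6 and 44.6 with Men1, against 19.6 and 65.4 with vector. The vector arrays held both the lowest and the highest value, so the log2 difference of 0.04 (SE 0.43) has no stable sign: it was -0.56 without vector replicate 1 and 0.64 without vector replicate 2. Ifit1 read 3.3 and 1.8 against 3.2 and 3, and Ifit3 read 2.7 and 9.5 against 3 and 5.8. Both genes were at control level on all arrays, so neither gives a fold. Besides Ifit2 and Ifit3, 4 of the 12 nearest protein-coding genes around Ifit1 were measured, and the groups overlapped for each. They were the lysosomal lipase Lipa (0.01, SE 0.31), the serotonin receptor Htr7 (-0.03, SE 0.22), the ribonuclease P subunit Rpp30 (-0.02, SE 0.20) and the ankyrin repeat gene Ankrd1 (0.33, SE 0.47).

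Isg15 encodes a ubiquitin-like protein that is joined to other proteins, and Usp18 the protease that removes it and also dampens the interferon receptor. Isg15 read 52.4 and 7.3 with Men1, against 32.8 and 9.5 with vector. The array numbered 1 of each group was above the controls and the array numbered 2 was at control level, so the signal followed the replicate number and not the group. The log2 difference between the groups was 0.18 with an SE of 0.60, and its sign depended on the arrays kept: -0.60 without Men1 replicate 1, 0.96 without Men1 replicate 2, 0.65 without vector replicate 1 and -0.29 without vector replicate 2. Usp18 read 1.6 and 2.2 against 0.9 and 2.5, at control level throughout.

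The antiviral GTPases were also at control level. Mx1, which blocks influenza virus replication in mice, read 0.5 and 0.8 with Men1, against 4 and 5.8 with vector. These groups do not overlap, but all 4 signals were below the controls of their arrays, so no fold is given. Gbp2, a guanylate-binding protein induced mainly by interferon gamma, read 3.4 and 5.5 against 2.7 and 7.9, and the groups overlapped.

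The transcription factors Irf1 and Irf7 were measured on every array. Irf1, a factor that is itself induced early by interferon, read 92.4 and 112.2 with Men1, against 92.6 and 188 with vector. Vector replicate 2 stood above the other arrays, which lay close together. The log2 difference was -0.34 (SE 0.35), and it became 0.12 without vector replicate 2 and -0.79 without vector replicate 1. Irf7, which amplifies the production of type I interferon, had a brighter probe set at 85 and 72.7 with Men1, against 81 and 73 with vector, a difference of 0.03 (SE 0.18). That probe set is marked by the manufacturer's suffix as one that can bind transcripts of related sequence. The other Irf7 probe set read 6.7 and 12 against 10 and 29.2, above the controls on vector replicate 2 alone. The Men1 arrays were at control level there, and their controls lay above the mean of the vector arrays, so no fold can be given.

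Taking 1 probe set a gene and means of log2(signal + 16), 5 of the 10 genes were lower with Men1 and 5 higher, and their median log2 difference was -0.01. Over all 8251 genes the median was also -0.01, with 53% lower and 47% higher. Groups did not overlap for 2 of the 11 probe sets (18.2%), Ifitm3 and Mx1, both lower with Men1. Over all 12422 probe sets tested the groups did not overlap for 22.1% in either direction and for 11.7% with Men1 the lower. No probe set in the table passed an adjusted p of 0.05 in limma (0%), and 233 (1.88%) had an unadjusted p under 0.05. As the set was chosen from this contrast, nothing is read from these shares about the set.

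The Ifitm3 pattern over the arrays was compared with those of other genes by the root mean square distance between log2(signal + 16) values after each probe set was centred on its own mean. With 4 arrays this says only which genes ran most closely in parallel. The nearest was Mest, an imprinted gene of the hydrolase family, at a distance of 0.09, with signals of 86.9 and 70.5 with Men1, against 143.7 and 239.3 with vector. The next were Lss, lanosterol synthase (0.12), the basement membrane collagen Col18a1 (0.12), the protein kinase A subunit Prkar1b (0.16) and the ciliary transcription factor Foxj1 (0.16). Differences were -1.10 (SE 0.29) for Mest, -0.97 for Lss, -0.76 for Col18a1, -0.82 for Prkar1b and -0.92 for Foxj1. These genes were picked for their likeness, so their separation of the groups is no further evidence. None is on the lists of interferon genes used here.

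The remaining pathway was followed through 7 lists, from ligands to effectors, that held 70 measured genes beside the 10. Irf9 and Ifih1 each stand on 2 lists. None passed in limma (0 of 70 at an adjusted p of 0.05). Groups did not overlap for 19 of the 70 (27.1%), 9 higher and 10 lower with Men1, where the share over all 8251 genes was 22.1% and that of lower ones was 12%. For 42 of the 70 the signal exceeded the controls on all arrays, and 11 of these had groups that did not overlap, where 22.6% of all such genes did. The median difference over the 70 was -0.05, with 27 higher and 43 lower on the log2(signal + 16) scale.

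Single arrays set the sign of these medians. Without vector replicate 2 the median over the 70 was 0.13, and over all genes it was 0.04. Of the 70 genes 32 (45.7%) were highest on that array, as were 41.1% of all genes. Leaving it out also turned the medians of the signal transducers (-0.05 to 0.09), the sensors (-0.10 to 0.20), the other antiviral effectors (-0.07 to 0.15) and the GTPases and p200 genes (-0.11 to 0.15). The median of the ligands and receptors became -0.04 without Men1 replicate 1, and that of the negative regulators became -0.03 without Men1 replicate 2. Among the 7 lists, the IRF factors alone kept their sign, at -0.10 to -0.01 over 5 genes.

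**Figure D4:**
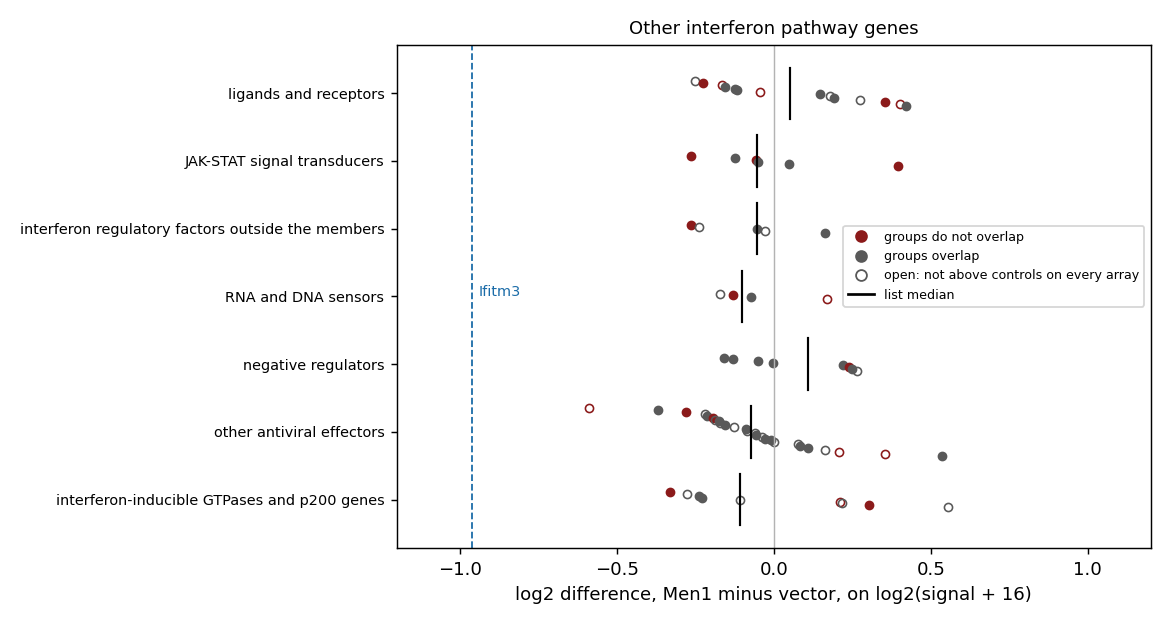
Log2 difference (Men1 minus vector, x axis) of each measured gene of the 7 pathway lists (rows), 1 point a gene; red points have groups that do not overlap, open points were not above the controls on every array, and black bars are list medians. The list medians lie between -0.11 and 0.11 with all arrays, and for 6 of the 7 lists the sign changes when a single array is left out; the dashed line at -0.96 marks Ifitm3.

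At the head of the pathway, Ifnar1, a subunit of the type I receptor, read 121.8 and 105.4 with Men1, against 137 and 133.5 with vector. The vector signals were the higher ones, by a margin close to the spread between the Men1 arrays (log2 difference -0.23, SE 0.18). Ifnar2, its partner, overlapped in its brightest probe set (0.19, SE 0.29). Another Ifnar2 probe set, also above the controls on all arrays, had the opposite sign. It read 32.5 and 39.8 with Men1, against 55.5 and 39.1 with vector, and the groups overlapped (-0.27, SE 0.22). The interferon gamma receptor subunit Ifngr1 (-0.12, SE 0.23) and Il10rb, a subunit of the interferon lambda receptor (0.15, SE 0.26), overlapped too. The genes of interferon beta and gamma were at control level on all arrays. Ifnb1 read 18.7 and 14.3 against 10.1 and 15.4 and Ifng 1.3 and 1.4 against 2.1 and 1.7. The Ifna5 probe set, of a kind that can bind several members of its gene family, read 110.1 and 109.4 against 67 and 100.8 (0.35, SE 0.23). Of the 14 measured ligand and receptor genes 7 were higher and 7 lower, with a median of 0.05. The groups did not overlap for 5 of the 14 (35.7%, against 22.1% of all genes), and 2 of the 5 exceeded the controls on all arrays.

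Of the kinases and factors that pass the signal on, 6 were analysed here. The groups did not overlap for 3 of the 6 (50%, against 22.1% of all genes). The receptor kinase Tyk2 read 129.9 and 105.2 with Men1, against 78.4 and 92.4 with vector, the Men1 arrays being higher (0.39, SE 0.20). Irf9, a DNA-binding factor of the type I interferon response, read 59 and 54.4 against 64.2 and 79, with vector higher (-0.26, SE 0.19). Ptpn11, a phosphatase of the pathway, also separated the groups, at a difference of -0.06 (SE 0.17). Jak1 (0.05, SE 0.18), Stat3 (-0.12, SE 0.28) and Jak2 (-0.05, SE 0.35) overlapped. Among other IRF factors, Irf3, which acts directly downstream of the nucleic acid sensors, differed by -0.06 (SE 0.17) and Irf5 by 0.16 (SE 0.21). On that list of 5 genes, which also holds Irf9, the groups did not overlap for Irf9 alone (20%). Irf8, a factor of blood cells, read 19.8 and 8.5 with Men1, against 26.6 and 12.7 with vector and exceeded the controls on 1 array.

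Sensors and their adaptors gave 4 measured genes, and the groups did not overlap for 2 of them (50%, against 22.1% of all genes). The adaptor Myd88 read 47.6 and 43.6 against 53.8 and 49.1, higher with vector (-0.13, SE 0.17). Tbk1, the kinase that activates IRF3, overlapped (-0.07, SE 0.24). Ikbke, a related kinase, read 26.2 and 24.7 against 19.5 and 22.2, with the second Men1 signal at control level (0.17, SE 0.17). The RNA sensor Ifih1 was at control level on all arrays. Of the 8 negative regulators, 1 had groups that did not overlap (12.5%). This was Ptpn1, a phosphatase that acts on JAK kinases. It read 309.8 and 385 with Men1, against 299.3 and 281.5 with vector, the Men1 arrays being higher (0.24, SE 0.20). Pias1 (-0.16, SE 0.23), Adar (-0.0040, SE 0.20) and Cish (-0.05, SE 0.24) overlapped.

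Other antiviral effectors were the longest list, with 26 measured genes, 8 higher and 18 lower and a median of -0.07, which was -0.28 without vector replicate 1 and 0.15 without vector replicate 2. Of all genes 53% were lower. Groups did not overlap for 5 of the 26 (19.2%, against 22.1% of all genes). Lower with Men1 were Samhd1, Plscr1 and Ube2l6, and higher were Rsad2 and Isg20, both at control level on all arrays. Samhd1, which depletes the nucleotides that viruses need, read 137.5 and 123.5 with Men1, against 144.9 and 158.3 with vector (-0.19, SE 0.18). Plscr1, a phospholipid scramblase, read 66.3 and 74.1 against 83.8 and 93.7 (-0.28, SE 0.18). Ube2l6, a conjugating enzyme for ISG15, read 12 and 10.1 against 17.8 and 32.8, the Men1 signals being at control level, so no fold is given. Ly6e, a surface protein that restricts coronaviruses, had the highest signals of the list, 1748 and 2681 with Men1, against 1673 and 3168 with vector. Its array numbered 2 was the higher one in each group, and the groups overlapped (-0.09, SE 0.39). The probe set with these signals is marked, like the brighter one of Irf7, as able to bind transcripts of related sequence. Another Ly6e probe set read 26.9 and 13.5 with Men1, against 17.4 and 28.7 with vector. Pml differed by 0.08 (SE 0.21) and Ifrd1 by 0.11 (SE 0.27).

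Of 9 measured interferon-inducible GTPases and p200 genes, which include DNA-binding proteins, 4 were higher and 5 lower with a median of -0.11. Without vector replicate 2 the median became 0.15. The groups did not overlap for 3 of the 9 (33.3%, against 22.1% of all genes), and 2 of the 3 exceeded the controls on all arrays. Irgm1, a GTPase that acts against intracellular bacteria, read 36.5 and 35.4 with Men1, against 41.5 and 58.1 with vector, the latter being higher (-0.33, SE 0.21). Gbp7, a relative of Gbp2, read 36 and 36.6 against 19.4 and 34.7, with the Men1 arrays higher (0.30, SE 0.24). Ifi204 (-0.23, SE 0.23) and Irgm2 (-0.24, SE 0.34) overlapped. The Ifi204 probe set is marked by its suffix as able to bind transcripts of related sequence. Dimmer Ifi204 probe sets had the opposite sign, at 0.18 (SE 0.35), above the controls on 2 arrays, and 0.14 (SE 0.24), at control level throughout.

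Markers of blood cells, which respond strongly to interferon, were set beside these values. Of the 15 measured genes of that list 8 were at control level on all arrays, among them the leukocyte marker Ptprc. Another 6 exceeded the controls on every array in their brightest probe set, namely Cd14, Cd68, Csf1r, Spi1, Laptm5 and Cd74. The other Csf1r probe set exceeded them on 2 arrays only and the other Cd68 probe set on none. That of Laptm5 exceeded them on all 4. The groups did not overlap for 3 of the 15 (20%, against 22.1% of all genes). Cd14, a lipopolysaccharide co-receptor, read 257.8 and 254.7 with Men1, against 218.3 and 241.6 with vector, and Cd74, the invariant chain of MHC class II, was also higher with Men1, at 64 and 70.5 against 54 and 51.7. Cd79a, a subunit of the B cell receptor, was lower with Men1, at 20.6 and 19 against 41.3 and 30.9. Both of its Men1 signals were at control level, so no fold is given. The summed signal, of which Cd14 makes up the largest share, of the list was 586.6 and 626.6 with Men1, against 549 and 657.9 with vector, so the groups overlapped. Of the epithelial markers 2 of 9, Cdh1 and Krt19, exceeded the controls on all arrays, and Epcam was at control level. Cdh1 read 93.7 and 156.7 with Men1, against 132.6 and 165.2 with vector, and Krt19 read 106.7 and 146.5 against 93.6 and 67.2. The summed signals of that list were 255.1 and 396.6 against 311.9 and 349.2. Of the endothelial markers 2 of 7, Pecam1 and Flt1, exceeded the controls on all arrays, and Cdh5 was at control level. Pecam1 read 41 and 49.5 with Men1, against 23 and 37.9 with vector, and Flt1 read 152.4 and 51.1 against 95.9 and 76.6. The summed signals of these markers were 226.6 and 137.3 against 151.2 and 156.8. Those of fibroblast markers were 14620 and 12700 against 13260 and 14510. The groups did not overlap for 3 of the 17 fibroblast markers (17.6%, against 22.1% of all genes). Sparc was lower with Men1, at 2156 and 2282 against 2598 and 2867, as was S100a4, at 96.3 and 146.6 against 149 and 154.2. Twist1 was higher with Men1, at 164.8 and 203.9 against 146.9 and 160.7. On vector replicate 2, the array with the highest Ifitm3 signal, 10 of the 17 fibroblast genes were at their highest (58.8%, against 41.1% of all genes) and 2 at their lowest. The collagen genes Col5a1 (1357 and 919.2 with Men1, against 1201 and 867.4) and Col5a2 (1464 and 951.7, against 1565 and 683.8) were the lowest ones. Dcn, the matrix protein decorin, read 18.7 and 37.7 with Men1, against 18.5 and 139.3 with vector, and Prrx1, a mesenchymal homeobox factor, read 25.1 and 54 against 16.5 and 125.6. Their part in the Ifitm3 difference was not tested, and without that array Ifitm3 differed by -0.71.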

How the data were processed

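RNA from 4 samples of Men1 knockout mouse embryonic fibroblasts was hybridised to Affymetrix arrays. The authors deposited linear probe set intensity. The submitters' processing notes name MAS5 and Affymetrix Expression Console; their versions and the scaling target are not given in the sources used here. Detection calls were not used. Labelling used random as well as poly(T) primers per the labels' protocols. Of 12488 probe sets, 66 controls were left out and 12422 tested; the platform annotation gave a single symbol for 10833, several for 396 and none for 1193. Values were analysed as log2(signal + 16), which understates folds of dim genes, with limma 3.58.1 (lmFit, eBayes; R 4.3.3) over the whole table (two-sided, Benjamini-Hochberg, threshold 0.05; 2 residual and 2.87 prior degrees of freedom). The fit was tested on simulated data. The number of arrays limits the precision (median SE 0.22). A gene is represented by its brightest probe set, and list genes were matched by annotation symbol or current RefSeq symbol. Named genes were all members, all measured Ifitm genes, list genes above controls whose groups did not overlap, up to 3 further genes a list by signal, and the 5 nearest in pattern to Ifitm3; Ifnb1, Ifng, Ube2l6, Rsad2, Isg20, the chromosome neighbours and the single marker genes fall outside this rule and were chosen after their values were seen, as were the promoter motifs. Members and lists were chosen with earlier results of these data known. Alternatives were quantile normalization, pseudocounts of 1 and 64, a filter on dim probe sets, replicate number as a block, a variance trend, and leaving out each array.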

Additional observations from a re-analysis of the deposited data

How the results depend on the processing

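No probe set passed an adjusted p of 0.05 in limma under any setting run (0 throughout), with 95 to 1031 at an unadjusted p under 0.05, the last without vector replicate 1. The Ifitm3 difference ranged from -1.21 to -0.71 over 9 alternatives; its groups do not overlap and the set was picked on it, so its sign could not turn when an array was left out. The difference of Isg15 ranged from -0.60 to 0.96 and that of Irf1 from -0.79 to 0.12. The median over the 10 genes was -0.14 to 0.024 without single arrays, against -0.01, and over those left by the filter on dim probe sets 0.03. Probe sets whose groups did not overlap numbered 2750, 1777 of 8212 after the filter, and 6209 to 8990 without single arrays, where a lone array stands for a group. After the filter the median of the GTPases and p200 genes was -0.23 and that of the negative regulators -0.0040. Replicate block: same-numbered arrays deviated together (r = 0.26 across probe sets, which are not independent), but the labels do not say what a number marks, so it was not taken as a pairing. With replicate number as a block 0 probe sets passed and 297 had an unadjusted p under 0.05, against 233, and the SE of Ifitm3 was 0.25 and that of Isg15 0.24. The count of groups that do not overlap cannot be formed with a block. Genes near the controls (Ifit1, Ifit3, Usp18, Mx1 and Gbp2) are limited by signal over background.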
